A study of Mus musculus with 10 samples.

Results

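The genes described here encode the oxidases of the gut lining that make hydrogen peroxide and superoxide, and the inducible enzyme that makes nitric oxide. The set is 7 genes, Duox2, Duoxa2, Nox1, Noxo1, Noxa1, Cyba and Nos2, chosen by symbol from the 19456 genes listed in at least 1 library. All 7 were listed in every library, and all 7 passed the filter on low counts. The libraries are poly-A RNA sequencing of C57BL/6 mouse intestinal tissue. They fall into 4 groups: untreated wild type (WT, n = 3), untreated mice that overexpress ITGB6 from a transgene (TG, n = 3), WT mice given 2.5% dextran sulfate sodium by mouth (WT DSS, n = 2), and TG mice given the same agent (TG DSS, n = 2). DSS is a sulfated sugar polymer that injures the gut lining, and ITGB6 is the beta subunit of the integrin alpha v beta 6. The age and sex of the mice, the days of DSS, the promoter of the transgene and whether each library is a separate animal are not given in the sources used here. P-values therefore measure the spread between these samples.

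DUOX2 is an oxidase of the luminal face of the gut epithelium that releases hydrogen peroxide, and DUOXA2 is the partner protein that brings it from the endoplasmic reticulum to the cell surface. NOX1 is the superoxide-making oxidase of colon epithelium. It works as a complex with the membrane subunit p22phox, encoded by Cyba, the organiser NOXO1, the activator NOXA1 and the small GTPase RAC1. NOS2 makes nitric oxide from arginine with tetrahydrobiopterin as cofactor, and in the gut it is known from inflamed epithelium and from macrophages.

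Duox2 (gene ID 214593, chromosome 2, 122279246 to 122298740, minus strand) and Duoxa2 (gene ID 66811, chromosome 2, 122298900 to 122302885, plus strand) lie head to head in the RefSeq annotation of GRCm38.p6. Only 159 bases separate the gene models, and no exon of the GENCODE M21 annotation overlaps them. The whole stretch, chr2:122298741-122298899, is shown because it lies between the gene models of 2 genes that moved together in these libraries. It is written on the plus strand, with the Duox2 model beyond its left end and the Duoxa2 model beyond its right end, and the capitals mark the match to the TATA motif TATAAA.
Duox2-Duoxa2 intergenic stretch: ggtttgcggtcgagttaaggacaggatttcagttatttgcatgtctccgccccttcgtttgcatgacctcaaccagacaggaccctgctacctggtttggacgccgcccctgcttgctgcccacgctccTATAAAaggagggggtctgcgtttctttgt
Nox1 (gene ID 237038, chromosome X, 134086421 to 134137711, minus strand) was the member whose values followed the others least. The 250 bases before the start that the RefSeq promoter table gives for it, chrX:134111855-134112104, are shown for that contrast. This start is that of a shorter transcript, so the stretch lies inside the full gene model, where no GENCODE M21 exon overlaps it. Capitals mark its match to the kB motif GGGANNNNCC, the kind of site that NF-kappa-B proteins bind.
Nox1 upstream stretch: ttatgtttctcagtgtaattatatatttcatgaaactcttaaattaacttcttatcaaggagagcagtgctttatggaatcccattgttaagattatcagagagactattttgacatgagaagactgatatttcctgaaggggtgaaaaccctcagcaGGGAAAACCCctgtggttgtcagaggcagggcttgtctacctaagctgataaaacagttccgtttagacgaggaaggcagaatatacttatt

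The TATA match begins 30 bases before the start of Duoxa2. The promoter table's start for Duox2 is that of a transcript that begins further inside the gene model, so the window searched for Duox2 does not reach this stretch. No other window of the 6 members with a promoter entry held a TATA match, and 12.4% of the 250-base windows before 32851 RefSeq starts of this build hold one. The kB match of Nox1 begins 92 bases before its start. Noxa1 and Cyba also hold 1 kB match each, as do 17.6% of all windows, and Duox2, Duoxa2 and Noxo1 hold none. No member window held the interferon-gamma activated site TTCNNNGAA, present in 7.02% of all windows, or the interferon-stimulated core GAAANNGAAA, present in 2.98%. All motifs were searched on both strands, and such a match is a description of the letters only.

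Depth was 15393859 to 18284704 expected counts per library over 16391 to 16949 listed genes. The human ITGB6 entry read 3632 to 3913 CPM (counts scaled to library size) in untreated TG, 2201 to 2453 in TG DSS, and at most 1.13 in any WT library. The 8 epithelial markers summed to 14945 to 20645 CPM. The 6 colon markers were all above 1 CPM in every library, with sums of 9169 to 11584 CPM in untreated WT, 5528 to 9180 in untreated TG, 3971 to 6292 in WT DSS and 7930 to 10094 in TG DSS. After DSS in WT 4 of these 6 were lower (median log2 fold change -0.88): Aqp8, Slc26a3, Car1 and Car4, which encode a water channel, a chloride exchanger and 2 carbonic anhydrases of the mature colon surface. Slc26a3 was at 882 ± 36.3 CPM (SD, n = 3) in untreated WT and 306 ± 66.2 CPM (SD, n = 2) in WT DSS. TG untreated 1 stood apart in its leukocyte markers, with Ptprc at 8.94 CPM against 56.9 and 79.5 in the other untreated TG libraries. Xist, transcribed from the inactive X chromosome, was at 0 to 0.417 CPM without treatment (6 libraries) and at 307 to 739 CPM with DSS (4 libraries). Kdm5d, on the Y chromosome, was 26.6 to 44.2 CPM in the untreated libraries and 0 in those after DSS. The Y-linked Ddx3y, Uty and Eif2s3y were at most 0.234 CPM after DSS. In TG untreated 1 they read 14.2, 7.63 and 21.4 CPM. In the other untreated libraries they read 42.1 to 46.4, 19.4 to 23.8 and 37.3 to 53.4 CPM. Treated and untreated libraries thus also differ in whether they hold Y-linked transcripts, and the effects of DSS and of sex cannot be told apart. The comparisons of TG with WT within a treatment are free of that split. The genotype by DSS interaction, the difference in DSS response between genotypes, is not, as it also sets treated against untreated libraries. Scaling by total counts changed the split of higher and lower calls over all genes from 318 and 202 to 235 and 382 for untreated TG against WT, from 25 and 1 to 6 and 1 for TG against WT after DSS, from 1434 and 1354 to 1146 and 1700 for DSS in WT, and from 468 and 303 to 413 and 402 for DSS in TG.

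Per length of transcript, in the deposited FPKM values, Cyba was the most abundant member, with 111 to 184 FPKM across the 10 libraries. Noxo1 ranged from 35.2 to 68.2 FPKM and Noxa1 from 31.1 to 52.3 FPKM. Duox2 spanned 15.8 to 87.8 FPKM, Duoxa2 5.9 to 88.7 FPKM and Nox1 6.44 to 37.5 FPKM. Nos2, at 0.34 to 22.4 FPKM, was the lowest member in untreated tissue. Cyba stood in the 95.7th to 97.2th percentile of listed genes by FPKM, whereas Nos2 moved between the 20.9th and the 78.2th. In bulk tissue, fewer cells of a type and less RNA per cell cannot be told apart.

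**Figure D1:**
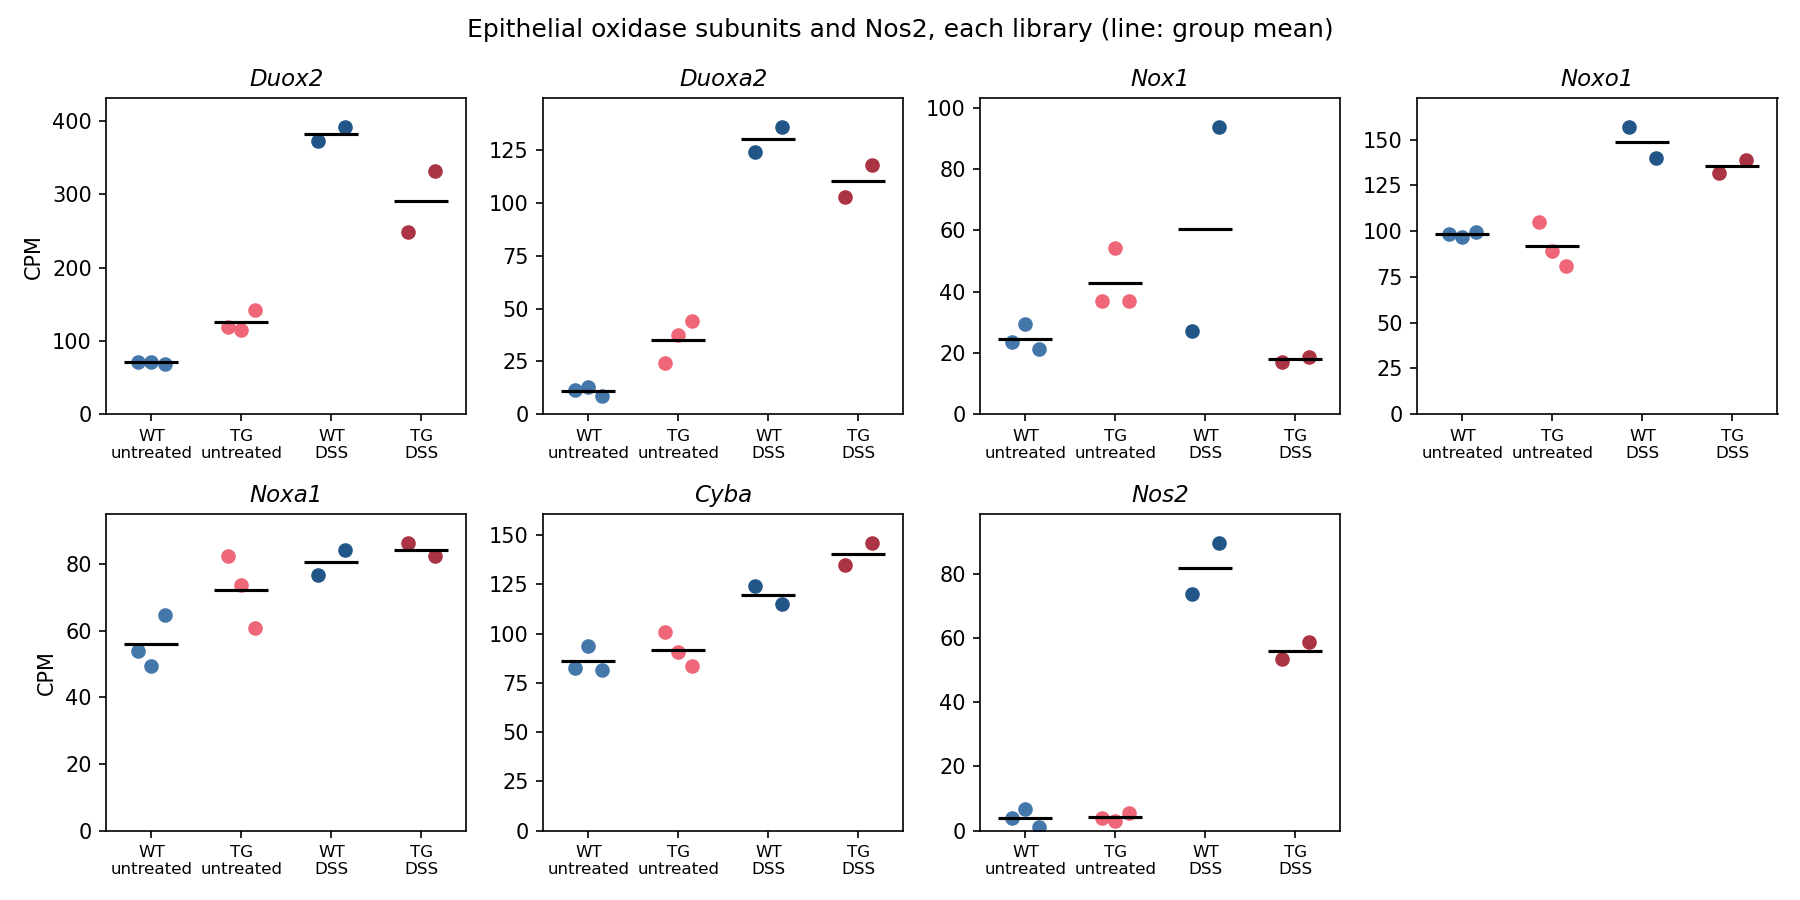
Level of each of the 7 genes in CPM (linear axis from 0) in every library, grouped by genotype and treatment. Points are libraries and black lines group means. Duox2, Duoxa2 and Nos2 lie higher in all 4 DSS libraries than in any untreated library, while Nox1 reads 93.8 CPM in 1 WT DSS library and 17.2 to 27.1 CPM in the other 3 DSS libraries.

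The first comparison asked how TG tissue differed from WT without treatment. Both genes of the DUOX2 pair were higher in TG, Duoxa2 by 3.14-fold and Duox2 by 1.77-fold, while the NOX1 complex genes and Nos2 did not pass the test. These 2 of 7 members passed in edgeR's quasi-likelihood test with Benjamini-Hochberg adjustment over 14072 genes, at adjusted p under 0.05, and both were higher. Over all genes tested 3.7% passed in either direction and 2.26% were called higher. The members' median log2 fold change was 0.37, against -0.02 over all genes. The share of all genes whose libraries do not overlap between groups is not given here for any contrast.

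Duoxa2 read 11.7, 13.1 and 8.86 CPM in the untreated WT libraries and 24.3, 37.5 and 43.9 CPM in the untreated TG libraries. The groups did not overlap, and the lowest TG value was that of TG untreated 1. Its log2 fold change was 1.65 ± 0.22 (SE, adjusted p = 0.00585, edgeR), and the call held without each of the 10 libraries in turn (adjusted p up to 0.0418). Duox2 read 71.6, 71.4 and 69.1 CPM in untreated WT and 119, 115 and 142 CPM in untreated TG. All 3 TG libraries lay above all 3 WT libraries, with a group mean of 125 ± 14.4 CPM (SD, n = 3) against 70.7 ± 1.41 CPM (SD, n = 3). The log2 fold change of Duox2 was 0.82 ± 0.13 (SE, adjusted p = 0.0114, edgeR). That call ended without WT untreated 1 (adjusted p = 0.054), 2 (0.0634) or 3 (0.0665), with log2 fold changes of 0.79 to 0.81.

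The fold was larger for Duoxa2 than for Duox2, and the ratio of their FPKM values was higher in TG. It was 0.473, 0.532 and 0.372 in untreated WT and 0.592, 0.948 and 0.899 in untreated TG. The groups did not overlap, and TG untreated 1 lay closest to WT. This ratio was not tested on its own.

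Nox1, the oxidase of the second complex, read 23.5, 29.3 and 21.3 CPM in untreated WT and 37.1, 54.1 and 37.1 CPM in untreated TG. The groups did not overlap, yet the log2 fold change of 0.79 ± 0.36 (SE) did not pass (adjusted p = 0.248, edgeR). It passed without WT DSS 1 (adjusted p = 0.0393) or WT DSS 2 (0.0402), libraries that enter this comparison only through the shared estimate of spread. The organiser gene Noxo1 (gene ID 71893, chromosome 17, 24696234 to 24700530) read 98.7, 96.9 and 99.4 CPM in WT and 105, 89.4 and 80.9 CPM in TG. The activator gene Noxa1 (gene ID 241275, chromosome 2, 25085667 to 25095205) read 54.0, 49.5 and 64.7 CPM in WT and 82.5, 73.9 and 60.8 CPM in TG. Cyba (gene ID 13057, chromosome 8, 122424771 to 122432940) read 82.6, 93.9 and 81.3 CPM in WT and 101, 90.5 and 83.7 CPM in TG. The groups overlapped for all 3 of these partner genes, with log2 fold changes of -0.10 ± 0.11, 0.37 ± 0.14 and 0.09 ± 0.11 (SE) in the same order, and none passed. Nos2 (gene ID 18126, chromosome 11, 78920787 to 78960226) was low in every untreated library, at 3.93, 6.73 and 1.23 CPM in WT and 3.88, 2.89 and 5.4 CPM in TG. Its log2 fold change was 0.03 ± 0.44 (SE, adjusted p = 0.979, edgeR), and the large error leaves room for a change of either sign.

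After DSS, the comparison of TG with WT gave 0 of 7 members past the threshold in edgeR, where 0.185% of all genes passed. Before adjustment, 2 members had a p under 0.05, Nox1 (log2 fold change -1.76 ± 0.45, SE, adjusted p = 0.192) and Duox2 (-0.39 ± 0.15, adjusted p = 0.363). DESeq2 called 1 member, Nox1 (adjusted p = 0.00582), and limma on log2(FPKM + 1) called 0. Duox2 read 372 and 392 CPM in WT DSS and 249 and 332 CPM in TG DSS. Duoxa2 read 124 and 136 CPM in WT DSS and 103 and 118 CPM in TG DSS. Nos2 read 73.7 and 89.5 CPM in WT DSS and 53.3 and 58.7 CPM in TG DSS. For each of these 3 genes both TG libraries lay below both WT libraries, without passing. The same was so for Nox1 and Noxo1. With 2 libraries per group such a split can arise by chance, and the share of all genes that split so is not given here. The members' median log2 fold change was -0.24, against -0.01 over all genes.

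Nox1 after DSS read 27.1 and 93.8 CPM in the WT libraries and 17.2 and 18.6 CPM in the TG libraries. The WT libraries lay 1 near the untreated level and 1 above every other library of the series. Without WT DSS 1, which left WT DSS 2 alone in its group and assumes that it varies like the other groups, the difference passed (log2 fold change -2.39, adjusted p = 0.0162, edgeR). Without WT DSS 2 it was -0.60 (adjusted p = 0.556). Noxo1 read 157 and 140.0 CPM in WT DSS and 132 and 139 CPM in TG DSS. Noxa1 read 76.8 and 84.3 CPM in WT DSS and 86.4 and 82.4 CPM in TG DSS. Cyba read 124 and 115 CPM in WT DSS and 135 and 146 CPM in TG DSS, the only member with both TG values above both WT values.

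DSS tissue was then compared with untreated tissue within each genotype. In WT all 7 members were higher after DSS, where 19.8% of all genes passed and 10.2% were called higher. Nos2 rose 20.5-fold, Duoxa2 11.6-fold and Duox2 5.4-fold, while Noxo1, Noxa1 and Cyba rose 1.39- to 1.51-fold. In TG 5 of 7 members were higher, Nos2 by 13.8-fold, Duoxa2 by 3.13-fold, Duox2 by 2.32-fold, Cyba by 1.53-fold and Noxo1 by 1.47-fold, where 5.48% of all genes passed and 3.33% were called higher. The members' median log2 fold change was 1.29 in WT and 0.62 in TG, against 0.00 and 0.01 over all genes.

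**Figure D2:**
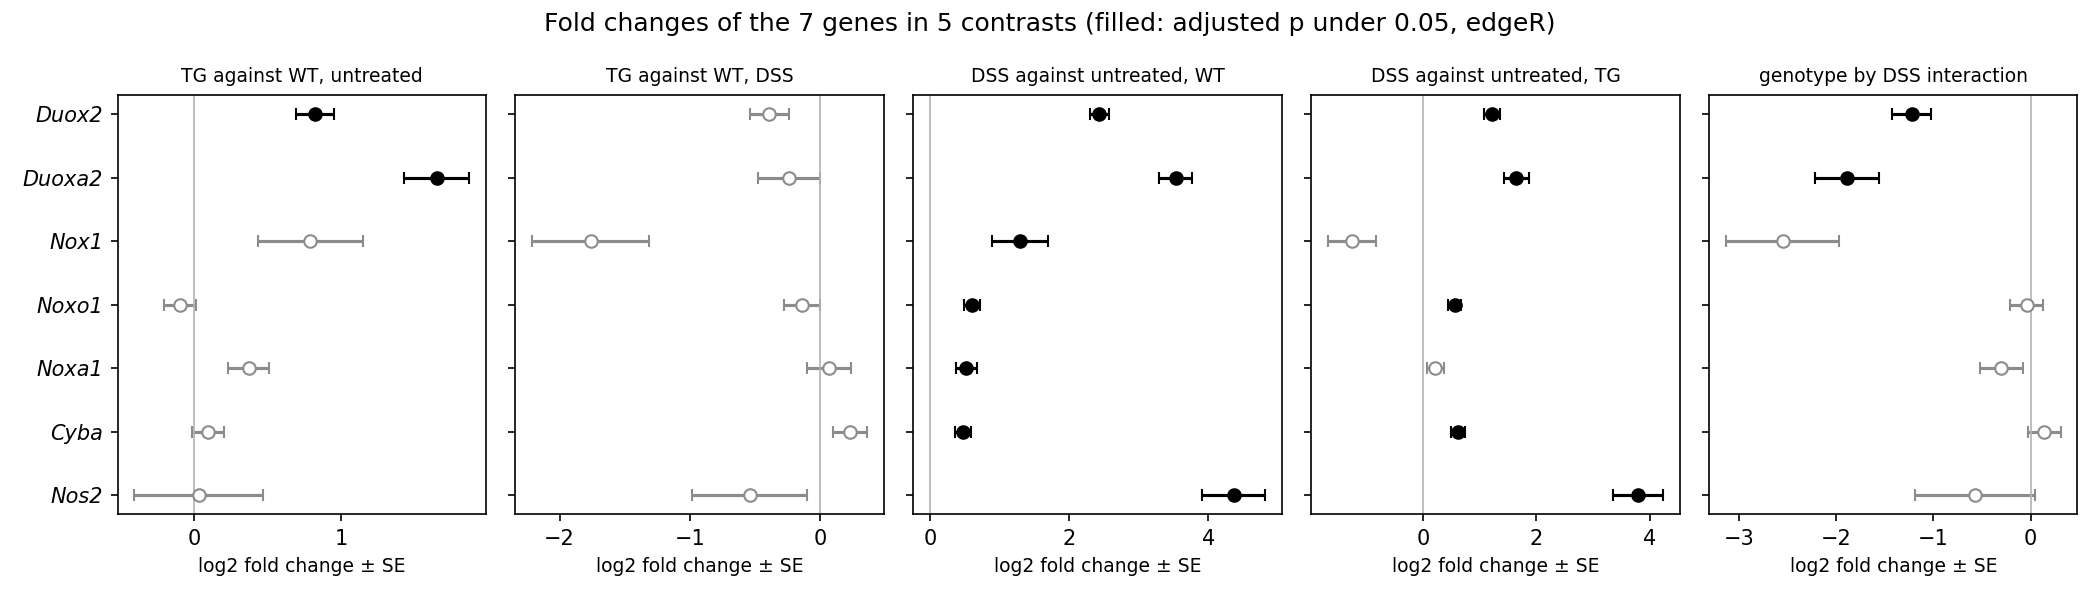
Log2 fold change with its standard error for the 7 genes (rows) in the 5 contrasts (panels, each with its own axis). Filled points passed adjusted p under 0.05 in edgeR and open grey points did not. The DSS panels show Nos2, Duoxa2 and Duox2 far to the right of the other members, and the interaction panel shows Duox2 and Duoxa2 filled below 0.

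Duox2 rose by 2.43 ± 0.14 (log2, SE, adjusted p = 1.56e-05, edgeR) in WT and by 1.22 ± 0.14 (adjusted p = 0.000929) in TG. Duoxa2 rose by 3.53 ± 0.24 (adjusted p = 3.67e-05) in WT and by 1.65 ± 0.22 (adjusted p = 0.00252) in TG. Nos2 rose by 4.36 ± 0.45 (adjusted p = 0.000266) in WT and by 3.79 ± 0.44 (adjusted p = 0.00119) in TG. Every DSS library lay above every untreated library for these 3 genes, and the share of all genes that split so is not given here. The 6 calls of these 3 genes held in every alternative fit and without each library in turn.

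The test of the difference between the genotypes, the genotype by DSS interaction, called Duox2 and Duoxa2, both lower, where 0.846% of all genes passed and 0.32% were called lower. The DSS response of Duox2 was smaller in TG by 2.33-fold (log2 -1.22 ± 0.20, SE, adjusted p = 0.025, edgeR). That of Duoxa2 was smaller by 3.7-fold (log2 -1.89 ± 0.33, adjusted p = 0.0323). The untreated level was the higher one in TG for both genes, at 125 against 70.7 CPM for Duox2 and 35.2 against 11.2 CPM for Duoxa2, and the level after DSS was the lower one, at 291 against 382 CPM and 110.3 against 130.0 CPM. The call for Duox2 ended without WT untreated 1, 2 or 3, TG untreated 3, WT DSS 2 or TG DSS 1 (adjusted p 0.0598 to 0.129, log2 -1.21 to -1.03). That for Duoxa2 ended without any library other than TG untreated 1 and WT DSS 1 (adjusted p 0.053 to 0.185, log2 -2.00 to -1.70), and in limma on log2(FPKM + 1) with no filter (0.0897). Both calls also ended with a block for the replicate number (adjusted p = 0.0767 for each, edgeR). Nos2, with an interaction of -0.57 ± 0.62 (adjusted p = 0.811), was not distinguishable between genotypes at this spread. In all these interactions DSS and sex cannot be told apart.

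The FPKM ratio of Duoxa2 to Duox2 was 0.966 and 1.01 in WT DSS and 1.2 and 1.03 in TG DSS. In WT it was close to 1 after DSS, from 0.459 ± 0.081 (SD, n = 3) untreated. In TG the mean was 0.813 ± 0.193 (SD, n = 3) untreated and 1.11 ± 0.124 (SD, n = 2) after DSS, with no overlap between libraries.

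**Figure D3:**
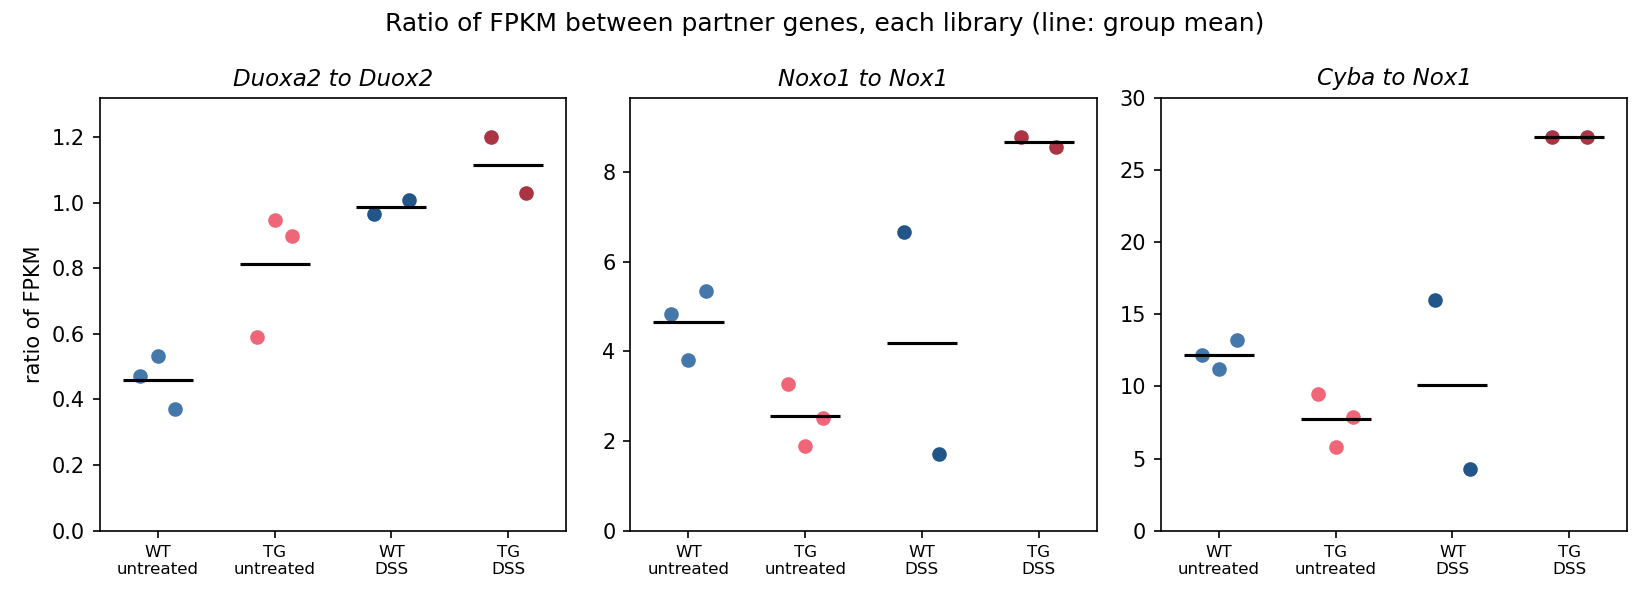
Ratio of FPKM between partner genes in every library (linear axis from 0): Duoxa2 to Duox2, Noxo1 to Nox1, and Cyba to Nox1. Points are libraries and black lines group means. The Duoxa2 ratio is lowest in untreated WT (0.372 to 0.532), and both Nox1 ratios are highest in the TG DSS libraries (8.55 and 8.77 for Noxo1, 27.3 in each for Cyba).

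In WT all 4 genes of the Nox1 complex passed as higher after DSS. Nox1 did so (log2 1.29 ± 0.40, SE, adjusted p = 0.0448, edgeR), but WT DSS 1, at 27.1 CPM, lay inside the untreated range of 21.3 to 29.3 CPM. Without WT DSS 2 its log2 fold change was 0.13 (adjusted p = 0.831). The call also ended without WT untreated 1, 2 or 3, TG untreated 2 or 3, or TG DSS 1 or 2 (adjusted p 0.0545 to 0.135), with total count scaling (0.06), with only the WT groups in the fit (0.0826) and in all 3 limma fits of log2 FPKM (0.148 to 0.228). In TG, Nox1 read 37.1, 54.1 and 37.1 CPM untreated and 17.2 and 18.6 CPM after DSS, with no overlap. That log2 fold change of -1.25 ± 0.42 (SE) did not pass (adjusted p = 0.121), and it passed in DESeq2 (0.0244), with only the TG groups in the fit (0.0294) and without WT DSS 1 (0.00895) or WT DSS 2 (0.00881). The interaction for Nox1 was -2.55 ± 0.58 (SE, adjusted p = 0.0864, edgeR). It passed without TG untreated 1 (adjusted p = 0.0481) or WT DSS 1 (0.00396) and in DESeq2 (0.000488), and without WT DSS 2 it was -1.39 (0.12). Nox1 is X-linked, and the DSS libraries are those with Xist, so for this gene too DSS and sex cannot be told apart.

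Of the partners of Nox1, Noxo1 and Cyba rose in both genotypes, and Noxa1 rose in WT and did not pass in TG. Noxo1 was 98.3 ± 1.29 CPM (SD, n = 3) in untreated WT and 149 ± 12.1 CPM (n = 2) after DSS, a log2 change of 0.60 ± 0.12 (SE, adjusted p = 0.00962, edgeR) that held without each library. In TG it was 91.9 ± 12.5 CPM (n = 3) and 135 ± 5.15 CPM (n = 2), a log2 change of 0.56 ± 0.12 (adjusted p = 0.0275). That call ended without WT untreated 1, TG untreated 2 or 3, or TG DSS 1 or 2 (adjusted p 0.0504 to 0.22), with upper quartile scaling (0.0505) and with only the TG groups in the fit (0.138). The interaction for Noxo1 was -0.04 ± 0.17 (adjusted p = 0.957).

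Cyba was 85.9 ± 6.94 CPM (SD, n = 3) in untreated WT and 119 ± 6.66 CPM (n = 2) after DSS, a log2 change of 0.47 ± 0.12 (SE, adjusted p = 0.0201, edgeR). In TG it was 91.7 ± 8.72 CPM (n = 3) and 141 ± 7.84 CPM (n = 2), a log2 change of 0.62 ± 0.12 (adjusted p = 0.0141). The WT call ended without WT untreated 1 or 3 or either WT DSS library (adjusted p 0.0752 to 0.0802), and the TG call without TG untreated 3 or either TG DSS library (0.0547 to 0.159) and with only the TG groups in the fit (0.083). Noxa1 was 56.1 ± 7.77 CPM (SD, n = 3) in untreated WT and 80.6 ± 5.3 CPM (n = 2) after DSS, a log2 change of 0.52 ± 0.15 (SE, adjusted p = 0.0367, edgeR). That call ended without WT untreated 1 or 2 or any 1 of the 4 DSS libraries (adjusted p 0.0584 to 0.215), with upper quartile (0.0642) or total count (0.0654) scaling, and in all 3 limma fits of log2 FPKM (0.0642 to 0.0935). In TG Noxa1 was 72.4 ± 10.9 CPM (n = 3) and 84.4 ± 2.82 CPM (n = 2), libraries that overlapped, and the log2 change of 0.22 ± 0.15 did not pass (adjusted p = 0.471). The interaction for Noxa1, -0.30 ± 0.22 (adjusted p = 0.663), did not pass either.

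Noxo1 to Nox1 was 4.82, 3.8 and 5.34 in untreated WT, 3.26, 1.89 and 2.5 in untreated TG, 6.65 and 1.71 in WT DSS, and 8.77 and 8.55 in TG DSS. Both TG DSS libraries lay above all others, and the WT DSS libraries spanned the range of both untreated groups. Cyba to Nox1 followed the same order, at 12.2 ± 1.04 (SD, n = 3) in untreated WT, 7.71 ± 1.82 (n = 3) in untreated TG, 16.0 and 4.27 in WT DSS and 27.3 in each TG DSS library. No test was made of these ratios.

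Reads can be shared between overlapping or similar genes, and whether the counting used strand is not given in the sources used here. On the GENCODE M21 exons, Noxo1 shares 2122 of 3013 exon bases with Tbl3 on the opposite strand, Duoxa2 682 of 1592 with Duoxa1, Nox1 399 of 2905 with Cstf2 and Noxa1 50 of 1617 with Entpd8. Duox2, Cyba and Nos2 share none. The deposited lengths were 2239 bases for Noxo1, 2563 for Nox1 and 1592 for Duoxa2. The models that were counted thus differ from these exons for Noxo1 and Nox1, and their own overlap is not given here. The deposited expected counts of Duoxa2, Noxo1, Cyba and Nos2 were whole in all 10 libraries, whereas those of Duox2 and Nox1 were not whole in any, and those of Noxa1 not in 7, as happens where reads are divided between entries. The neighbouring paralogs were near the floor, with Duox1 at 0.179 to 0.894 CPM and Duoxa1 at 0 to 0.432 CPM.

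Across the 10 libraries, the log2 CPM of Duoxa2 and Duox2 had a Pearson r of 0.98, Nos2 and Duox2 0.93, and Cyba and Noxo1 0.87. Nox1 had r between -0.20 and 0.19 with the other 6 members. These are descriptions over libraries that share the same 4 groups, and no p is given. Among 12729 genes of at least 1 CPM, those most like Duox2 were Tnfrsf1b (r = 0.986), a receptor of tumour necrosis factor, Mfsd2a (0.983), a lysophospholipid transporter, and Cnp (0.982), and the same 3 genes came first for Duoxa2 (0.969 to 0.985). Tnfrsf1b averaged 31.6 CPM in untreated WT, 48.6 in untreated TG, 99.1 in WT DSS and 77.4 in TG DSS, the order that Duox2 also followed. Nos2 was most like Il18bp (0.977), the binding protein of interleukin 18, Clca4b (0.974) and the complement gene C4b (0.973). Nox1 was most like Xpo7 (0.920) and Srgap2 (0.908). Noxo1 was most like Cgnl1 (0.972), Muc1 (0.968), a membrane mucin, and Frg1 (0.963), Noxa1 like Romo1 (0.967), Lyrm4 (0.963) and Ube2e3 (0.956), and Cyba like Mbd2 (0.984), Atp6v1f (0.977) and Rps27 (0.976).

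Of 13 other NADPH oxidase and nitric oxide synthase family genes, 11 were listed and 7 tested. In WT after DSS 1 was higher and 1 lower, and 0 passed in the other contrasts. Rac2, the blood-cell Rac GTPase, fell from 48.3 ± 18.8 CPM (SD, n = 3) to 16.5 ± 2.36 CPM (n = 2; log2 -1.55 ± 0.40, SE, adjusted p = 0.0226, edgeR), and that call ended without WT untreated 2 or either WT DSS library (adjusted p 0.0623 to 0.166). Rac1, the Rac of the NOX1 complex, was 359 to 556 CPM in all libraries and passed in no contrast. Cybb, the phagocyte oxidase itself, read 0.298 to 4.4 CPM, and the other nitric oxide synthases, Nos1 and Nos3, at most 0.123 CPM.

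All 12 genes of arginine and tetrahydrobiopterin supply were tested. In WT after DSS 4 were higher (Ass1, Gch1, Arg2 and Arg1) and 1, Qdpr, was lower, with a list median of 0.39 on the log2 scale against 0.00 over all genes. Gch1, the first enzyme of tetrahydrobiopterin synthesis, read 23.0, 24.9 and 21.3 CPM in untreated WT and 41.6 and 44.4 CPM in WT DSS (log2 0.90 ± 0.15, SE, adjusted p = 0.00343, edgeR). Ass1, which rebuilds arginine from citrulline, rose from 24.1 ± 1.17 CPM (SD, n = 3) to 58.1 ± 17.4 CPM (n = 2), and that call ended without WT DSS 2 (adjusted p = 0.0949). In TG after DSS 2 were higher, Arg2 and Gchfr, with a list median of 0.13 against 0.01. Arg2, an arginase that competes for the same arginine, read 4.11, 4.96 and 5.34 CPM in untreated TG and 26.2 and 25.4 CPM in TG DSS (log2 2.42 ± 0.21, SE, adjusted p = 0.000198, edgeR). In WT it read 8.56, 8.15 and 8.43 CPM untreated and 18.4 and 11.1 CPM after DSS (log2 0.81 ± 0.21, adjusted p = 0.0222), and without WT DSS 1 the change was 0.40 (adjusted p = 0.153). The WT call also ended without WT untreated 1, 2 or 3 (adjusted p 0.0669 to 0.0734), and that of Gchfr in TG in 7 of 10 fits without a library. In untreated TG against WT 1 gene, Arg1, was higher, at 1.14 ± 0.249 against 0.24 ± 0.061 CPM (SD, n = 3 each).

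Of 20 genes for hydrogen peroxide and superoxide enzymes, 18 were listed and 17 tested. In WT after DSS 6 were higher (Gpx2, Sod3, Txn1, Prdx1, Gpx1 and Txnrd1) and 0 lower, with a list median of 0.11 against 0.00 over all genes. Gpx2, the gut glutathione peroxidase, read 277, 278 and 308 CPM in untreated WT and 512 and 1389 CPM in WT DSS (log2 1.72 ± 0.34, SE, adjusted p = 0.00785, edgeR). WT DSS 2 was again far above WT DSS 1, and without it the change was 0.83 (adjusted p = 0.0721). In TG after DSS 4 were higher (Sod3, Prdx6, Lpo and Sod1), with a list median of 0.25 against 0.01. Prdx6, a peroxiredoxin, was the 1 gene of the list lower in untreated TG, at 1317, 1241 and 1138 CPM against 1809, 1883 and 1974 CPM in WT (log2 -0.62 ± 0.11, SE, adjusted p = 0.0167, edgeR), and that call ended without WT untreated 2 or 3 or TG untreated 3 (adjusted p 0.0557 to 0.0737). After DSS it read 1567 and 1396 CPM in WT and 2474 and 2307 CPM in TG, where it rose by 0.96 ± 0.12 (adjusted p = 0.00138). Without 1 library in turn, the calls ended in 5 of 10 fits for Txn1 in WT, in 3 of 10 for Sod3 in WT and 2 of 10 in TG, and in 4 of 10 for Lpo in TG. Arg1, Qdpr, Prdx1, Gpx1, Txnrd1 and Sod1 complete these counts and were named after their values were seen, as were Stat3 and Tnfrsf1a in the next list.

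Of 23 cytokine, receptor and transcription factor genes known to act on the members, 20 were tested. In WT after DSS 5 were higher (among them Il1b, Tnf, Tnfrsf1a and Stat3) and 1, Ifng, was lower, with a list median of 0.21 on the log2 scale against 0.00 over all genes, of which 10.2% were called higher. In TG 2, Il1b and Tnf, were higher, with a list median of 0.14 against 0.01, where 3.33% of all genes were called higher. The cytokine gene Il1b read 0.469 to 0.952 CPM in untreated WT and 20.7 and 14.8 CPM in WT DSS (log2 4.74 ± 0.37, SE, adjusted p = 7.23e-05, edgeR), and 0.417 to 1.06 CPM against 14.5 and 9.84 CPM in TG (log2 3.87 ± 0.36, adjusted p = 0.000324). Tnf read 2.29, 3.81 and 3.08 CPM in untreated WT and 20.4 in each WT DSS library. In TG it read 5.72, 5.49 and 4.71 CPM untreated and 16.6 and 12.1 CPM after DSS (log2 1.43 ± 0.22, adjusted p = 0.00466, which was 0.0589 without TG DSS 1). Ifng, the gene of interferon gamma, ran the other way, at 3.52, 7.14 and 3.57 CPM in untreated WT against 0.477, 0.768 and 1.18 CPM in untreated TG (log2 -2.55 ± 0.40, SE, adjusted p = 0.0131, edgeR) and 0.532 and 0.81 CPM in WT DSS (log2 -2.80 ± 0.48, adjusted p = 0.00435). The difference between untreated TG and untreated WT did not pass without TG untreated 2 (adjusted p = 0.055). Il17a, Il22 and Il6 were at most 0.648 CPM in any library.

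**Figure D4:**
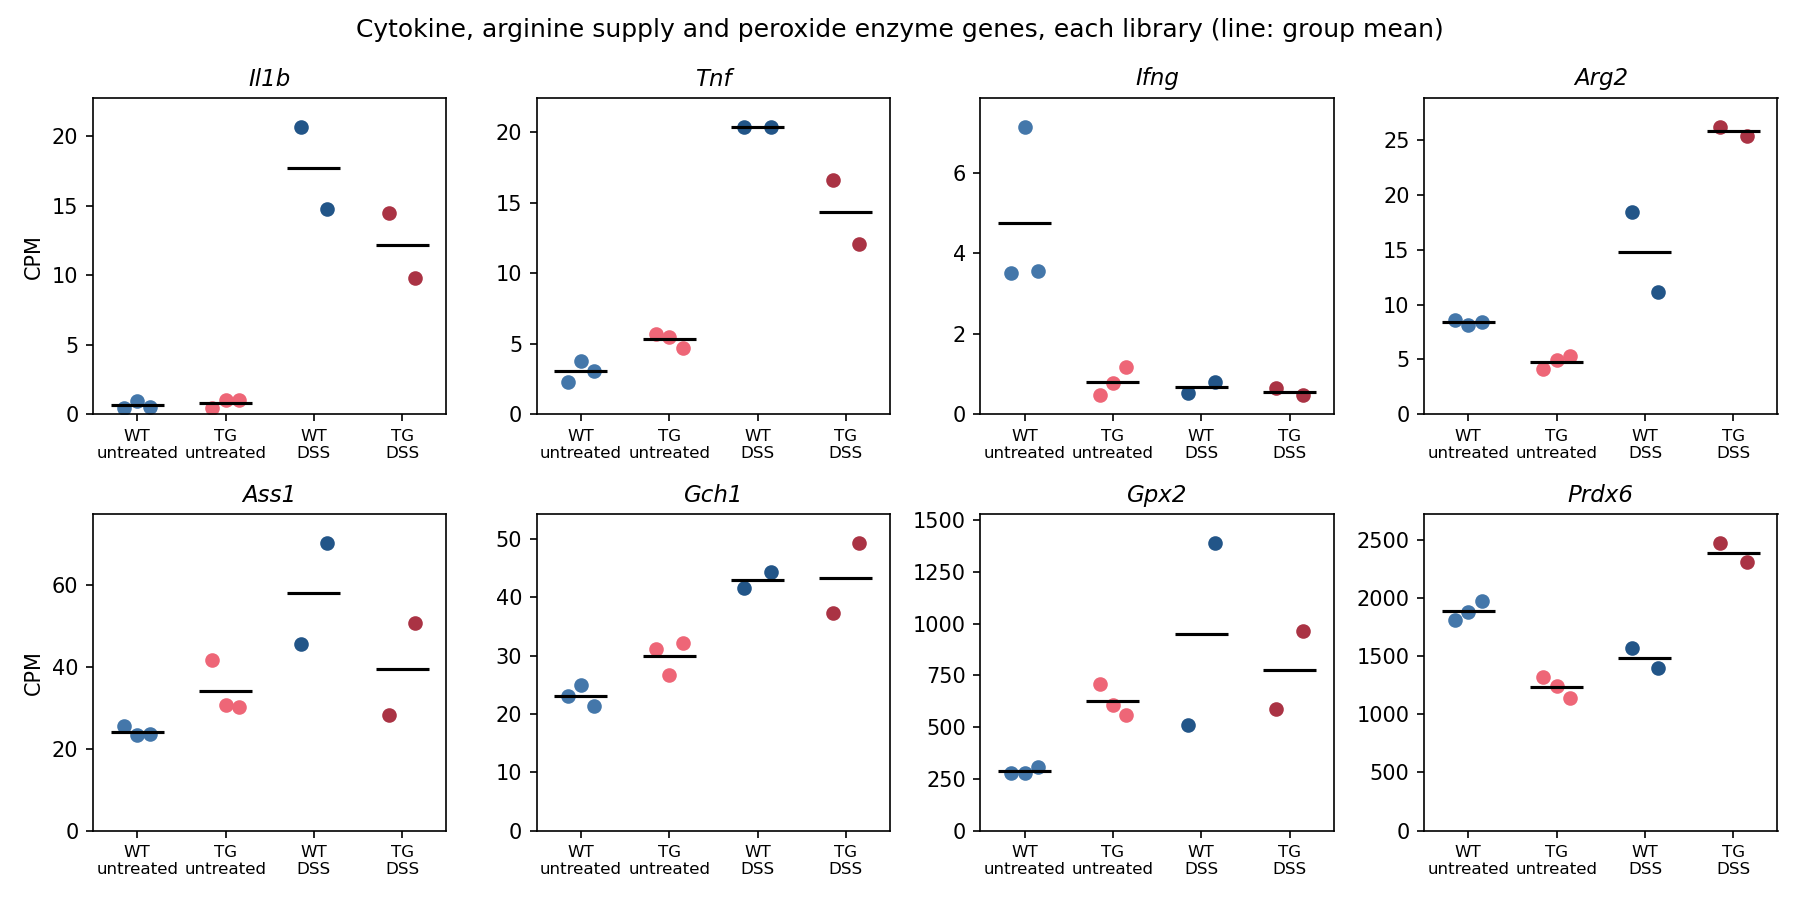
Level in CPM (linear axis from 0) of 8 genes from the cytokine, arginine supply and peroxide enzyme lists in every library. Points are libraries and black lines group means. Il1b and Tnf are higher in all 4 DSS libraries than in any untreated one, Ifng is highest in the 3 untreated WT libraries, and Arg2 and Prdx6 are highest in TG DSS.

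Markers of cells that also carry these enzymes moved with DSS. The 10 macrophage and monocyte markers, all listed, summed to 48.4 to 64.7 CPM in untreated WT, 64.2 to 68.9 in untreated TG, 156 to 179.7 in WT DSS and 129.6 to 142 in TG DSS, with 5 of 10 higher in WT and 3 of 10 in TG. Cd14, which was 119.9 to 124 CPM in WT DSS, made up most of that sum, and Adgre1 was 0.358 to 0.937 CPM in all libraries. Of 11 neutrophil markers 9 were listed and 7 tested, with 7 higher after DSS in WT and 6 in TG. Their sum went from 61.9 to 79 CPM in untreated WT to 145 to 156 in WT DSS, and from 29.6 to 39.5 in untreated TG to 193 to 264 in TG DSS. Ly6g made up most of that sum in each group. In TG against WT after DSS 0 of the 7 tested passed, with a list median of -0.31 and 2 of 7 above 0. Camp was 0 in every group but untreated WT (at most 0.0587 CPM), and Mpo and Elane were in no library. The 5 leukocyte markers went the other way, with 0 higher and 2 of 5 lower in WT (Coro1a and Laptm5, list median -1.50) and 0 passing in TG (list median -0.99), and sums of 182 to 353 CPM in untreated WT, 57.7 to 221 in untreated TG, 65.5 to 80.5 in WT DSS and 65.3 to 70.5 in TG DSS. The 8 epithelial markers gave 0 calls in either DSS contrast, and the 5 T cell markers listed went from 75.9 to 145 CPM in untreated WT to 25 to 34.3 in WT DSS. The part of these cells in the levels of Nos2, Cyba or Ifng was not tested. In untreated tissue, where Duox2 and Duoxa2 were higher in TG, 0 of 10 macrophage markers passed, 1 of 7 neutrophil markers was lower, and 1 of 8 epithelial markers was higher. In the same contrast 3 of 6 fibroblast markers, Col1a1, Col1a2 and Col3a1, were higher (list median 1.77), with sums of 20.4 to 35.9 CPM in WT and 39.8 to 118 CPM in TG. Of 7 goblet cell markers 2, Spink4 and Agr2, were higher (list median 1.19), with sums of 9349 to 24058 CPM in WT and 28121 to 39172 CPM in TG. Of 6 colon markers 1, Car4, was lower (list median -0.46), and the leukocyte and T cell markers gave 0 calls, with medians of -0.74 and -0.63 and every tested marker below 0. Their part in the levels of Duox2 and Duoxa2 was not tested.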

How the data were processed

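Per the labels' protocols, poly-A RNA of intestinal tissue was sequenced after BGISEQ-500 library preparation. The mm10 genome and the tools RSEM 1.2.12, HISAT2 2.0.4 and Bowtie2 2.2.5 are listed in the submitters' processing notes, with no role or order. The authors deposited 1 table per library. Its expected counts, named so per the file headers, were rounded here. The deposited FPKM values were used for levels between genes, and the deposited gene lengths were not used in any test. A gene not listed in a library was set to 0. Of the 19456 gene identifiers, 19399 were in the RefSeq table of GRCm38.p6, whose promoter table held 6 of the 7 members, and 26 missing or altered symbols were restored.

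CPM are rounded expected counts scaled by TMM (factors 0.934 to 1.06). The main test was edgeR 4.0.16 in R 4.3.3, with filterByExpr (count minimum 10, total minimum 15), 1 mean per group over all 10 libraries, 6 residual degrees of freedom and a biological coefficient of variation of 0.171. SE is the absolute log2 fold change over the square root of F. The same fit was also run on counts simulated with the spread fitted to these data. Those counts hold no sex split, and no rates from them are given here. Alternatives used DESeq2 1.42.0, limma 3.58.1 on log2 FPKM (pseudocount 1 or 0.1, kept at 1 FPKM in 2 libraries, or unfiltered), other scalings and filters, a block for the replicate number, fits of the compared groups alone, and fits without each library. Pathway genes named are, per contrast and list, up to 3 passing genes of largest change whose mean reached 1 CPM, and others only to complete a count. Genes most like a member are the 3 of highest Pearson r of log2 CPM (prior count 2). The members and lists were chosen with earlier results of these data known. Some genes that the rules would name are not reported here.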

Additional observations from a re-analysis of the deposited data

Results flagged for a closer look

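For 5 genes the response to DSS differed between the genotypes by the interaction test in edgeR (adjusted p under 0.05). For each of them DSS and sex cannot be told apart. The difference, TG minus WT on the log2 scale, was -1.22 for Duox2 (adjusted p = 0.025) and -1.89 for Duoxa2 (adjusted p = 0.0323), both with a smaller response in TG. It was 1.61 for Arg2 (adjusted p = 0.0406), 1.31 for Prdx6 (adjusted p = 0.00776) and 1.45 for Lpo (adjusted p = 0.0473), the lactoperoxidase gene, all with a more positive response in TG. Lpo read 55.0, 44.6 and 60.4 CPM in untreated WT, 49.8, 40.9 and 39.8 CPM in untreated TG, 28.5 and 44.2 CPM in WT DSS and 76.8 and 85.6 CPM in TG DSS. Without 1 library in turn the call ended in 7 of 10 fits for Arg2, in 1 of 10 for Prdx6 (without TG DSS 1, adjusted p = 0.0541) and in 8 of 10 for Lpo, all of which kept the sign.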

How the results depend on the processing

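The alternative fits gave 728 readings, each of 1 member in 1 contrast and setting. Only a member that passed in the main fit could lose a call. Those were 2 members in untreated TG against WT, 0 in TG against WT after DSS, 7 for DSS in WT, 5 for DSS in TG and 2 for the interaction. Of the readings, 643 kept direction and side of the threshold, among them members that passed in neither fit. A further 64 lost the call, 11 gained it and 10 changed sign, all 10 among members that did not pass. The changes of sign were in Nos2 in untreated TG against WT (-0.05 with total count scaling, -0.41 to 0.62 without 1 library), Noxa1 in TG against WT after DSS (-0.01 with total count scaling and in all 3 fits of log2 FPKM) and the interaction for Noxo1 (-0.12 to 0.07 without 1 library). Without 1 library in turn, the members passing numbered 1 to 3 in untreated TG against WT, 0 to 1 in TG against WT after DSS, 4 to 7 for DSS in WT, 3 to 6 for DSS in TG and 0 to 3 for the interaction. DESeq2 called 1 member in TG against WT after DSS, and limma on log2(FPKM + 1) without a filter called 1 in the interaction. Replicate numbers gave no clear sign of pairing. Over 13 same-numbered pairs, deviations from the group means correlated at -0.29 to 0.21, and 3 of 10 libraries matched their own number best. The 2 pairs above 0.1 were WT DSS with TG DSS for numbers 1 and 2. They hold 1 value by construction, since the libraries of a group of 2 deviate from its mean by equal and opposite amounts. With groups of 2 or 3 libraries this check cannot settle whether samples were paired. With the replicate block, 2, 0, 4, 3 and 0 members passed in the 5 contrasts in the same order, and the interaction calls of Duox2 and Duoxa2 ended (adjusted p = 0.0767 for each). The causes were not tested. For the pathway genes named, the same alternatives, added after the data were seen, kept 406 of 478 calls and changed no sign. Depth bears most on Nos2 in untreated tissue, with 20 to 113 expected counts per library.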

Other observations

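Ly6g held most of the sum of the neutrophil marker list. It read 55.7 to 72.1 CPM in untreated WT, 23.5 to 33.6 in untreated TG, 103 to 120.3 in WT DSS and 159 to 235 in TG DSS. S100a8 and S100a9, of the same list, were at most 0.0615 CPM in untreated WT, where Ly6g was not low. After DSS, S100a8 read 6.68 and 4.16 CPM in WT and 3.57 and 3.75 CPM in TG. In TG against WT after DSS, 2 of 7 tested markers were above 0 (list median log2 -0.31). How far Ly6g follows neutrophils in this tissue was not tested. In the untreated libraries the other listed neutrophil markers were each at most 5.45 CPM. Ltf, the lactoferrin gene, read 0.118 to 0.714 CPM in untreated tissue and 7.5 to 11.7 CPM after DSS.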
